A study of Mus musculus with 4 samples.

Results

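Aminoacyl-tRNA synthetases are the enzymes that load each transfer RNA with its amino acid, and their genes were followed here across 4 kinds of mouse blastocyst. A gene was taken when a probe set was annotated to it alone and its symbol was the letter of an amino acid followed by ars, with or without a final number, or was Farsa, Farsb or Eprs. This rule found 35 genes with 72 probe sets, of 18193 genes that had a probe set of their own on the array. Each gene was read from its probe set with the highest mean signal over the 4 arrays. The 19 genes of the cytosolic enzymes were Aars, Cars, Eprs, Farsa, Farsb, Gars, Hars, Iars, Kars, Lars, Mars1, Nars, Qars, Rars, Sars, Tars, Vars, Wars and Yars. The 16 genes of the mitochondrial enzymes, whose symbols end in 2, were Aars2, Cars2, Ears2, Fars2, Hars2, Iars2, Lars2, Mars2, Nars2, Pars2, Rars2, Sars2, Tars2, Vars2, Wars2 and Yars2.

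The cytosolic enzymes serve the translation of nuclear genes. The mitochondrial enzymes, also made from nuclear genes, serve the translation of the few proteins encoded by mitochondrial DNA. These proteins are all parts of the respiratory chain or of the ATP synthase. Most amino acids have a separate gene for each compartment. Gars and Kars are exceptions, since each gene yields both a cytosolic and a mitochondrial enzyme, and Eprs encodes 1 protein that charges glutamate and proline tRNAs. Some cytosolic enzymes sit together in a large complex held by scaffold proteins. Many cytosolic synthetase genes are reported targets of ATF4, a transcription factor whose protein is made when amino acids run short or the cell is otherwise stressed, and which also raises amino acid synthesis and uptake genes. The blastocyst, the stage at which the embryo has formed an outer trophectoderm and an inner cell mass, makes protein at a high rate and relies increasingly on respiration.

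The 4 groups were diploid and tetraploid parthenogenetic blastocysts and diploid and tetraploid fertilized ones, with 1 array each. Parthenogenetic embryos develop from an oocyte without a sperm and so carry maternal chromosomes only, and tetraploid embryos of either origin had been made by fusion. All embryos were taken at 96 hours (day 4), and RNA from 30 of them was pooled for each array and amplified before labelling. The study set parthenogenetic against fertilized embryos and used the tetraploid embryos as stand-ins for repeats of the diploid ones. Strain, culture and the method of activation are not given in the sources used here. No group has a repeat of its own, so any p-value below measures only the spread between these arrays, in which ploidy, the pool and technical error are mixed.

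The median signal of the arrays lay between 104 and 154. The control floor, the 95th percentile of 27 bacterial control probe sets on an array, lay between 99.7 and 150.3, and a signal at or below it is not told apart from background. The 6 trophectoderm markers and the 5 epiblast markers were above the floor on every array, as were 4 or 5 of 5 primitive endoderm markers. At most 2 of 4 oocyte, 1 of 3 cumulus and 1 of 4 fibroblast markers exceeded it. The parthenogenetic tetraploid array stood apart from the others, with correlations across probe sets of 0.82 to 0.83 with them, where they correlated with each other at 0.84 to 0.87. Its 3′ to middle ratio of control probe sets, which rises as transcripts shorten, was 9.28 for Actb against 5.13 to 7.55 elsewhere, and 5.22 for Gapdh against 3.72 to 4.08. Its 3′ to 5′ ratios lay within the range of the others, at 127 for Actb (108 to 137) and 24.3 for Gapdh (19.0 to 27.3). Its summed epiblast marker signal was 6377 against 9693 to 11903, and its summed primitive endoderm signal was 6950 (6949.93 before rounding) against 10150 to 12931. Its summed trophectoderm signal was the highest, at 88610 against 78861 to 82184. Of these markers Eomes, Krt8 and Tfap2c were highest on this array, but Krt18 and Gata3 were lowest. Cdx2 (3785) lay below both fertilized arrays (5496 and 4711). Among the primitive endoderm markers, Sox7 (288) was above the fertilized tetraploid array (137), and the others were lowest here. The epiblast markers did not all move together either. Nanog, Sox2 and Klf4 were lowest on this array, but Pou5f1 (708) and Esrrb (255) were above the fertilized tetraploid array (604 and 194). Scaling the arrays to a common median instead of the deposited scaling shifted the median origin difference of all probe sets from 0.01 to -0.30 on the log2 scale.

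All 19 cytosolic genes and 12 of 16 mitochondrial genes were above the floor on all 4 arrays. Of the remaining mitochondrial genes, Fars2 (phenylalanyl-tRNA synthetase) exceeded it on 3 arrays, Aars2 (alanyl-tRNA synthetase) and Sars2 (seryl-tRNA synthetase) on 1 and Mars2 (methionyl-tRNA synthetase) on none. Wherever 4 signals of a gene are given in a row, the diploid and then the tetraploid parthenogenetic array come first, followed by the diploid and then the tetraploid fertilized array. Mars2 signals were 111, 6.74, 127 and 5.45, and those of Sars2 were 221, 19.6, 98.2 and 51.9. Mars2 and Sars2 did not reach the array median on at least 2 arrays, which left 33 members among the 23746 probe sets tested.

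**Figure D1:**
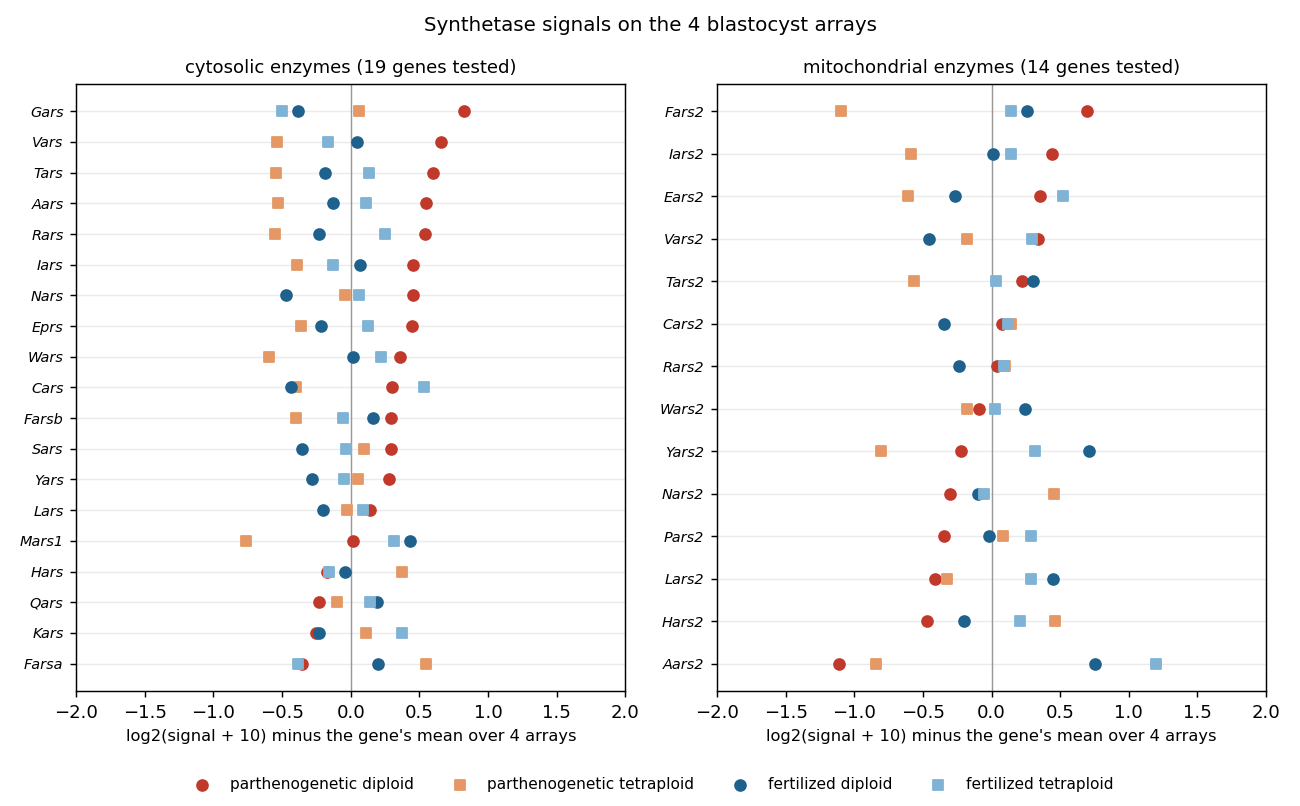
Each row is a synthetase gene and each point an array; the x axis is log2(signal + 10) minus the gene's mean over the 4 arrays, with the 19 cytosolic genes on the left and the 14 tested mitochondrial genes on the right. The parthenogenetic diploid array is the rightmost point for 13 of the 19 cytosolic genes, and the parthenogenetic tetraploid array the leftmost for 9.

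With respect to origin, no synthetase gene passed the adjusted threshold of 0.05 in limma's fit of the 2 parthenogenetic against the 2 fertilized arrays. Over all probe sets, 0.173% passed, 16 higher and 25 lower in parthenogenetic embryos, a split that became 7 higher and 30 lower with common median scaling. The lowest adjusted p among the members was 0.378. An unadjusted p under 0.05 was reached by 4 members, Gars on the higher side and Mars1, Lars2 and Yars2 on the lower side, in a fit where 10% of all 11341 genes reached it. In 3 members both parthenogenetic arrays were above both fertilized arrays (Gars, Sars and Yars), against 22.3% of all genes. In 6 members both were below (Mars1, Qars, Aars2, Lars2, Wars2 and Yars2), against 19.5% of all genes. The other 24 members overlapped between origins. Neither count of members exceeded the share among all genes. Both counts rest on the chosen probe sets. A second Wars2 probe set was higher on both parthenogenetic arrays (difference 0.94, SE 0.79), and some further Qars probe sets overlapped between origins.

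Among the cytosolic enzymes, Gars, the glycyl-tRNA synthetase of cytosol and mitochondria (chromosome 6), had the largest positive difference. Its signals were 26619, 15675, 11489.8 and 10616, so both parthenogenetic arrays were higher and the diploid one was highest. The fitted difference was 0.89 on the log2 scale (SE 0.27, n = 2 arrays per origin), with a limma adjusted p of 0.378. It was 0.56 with common median scaling (adjusted p 0.497). Leaving out the parthenogenetic diploid array gave 0.50 (adjusted p 0.417). Without the parthenogenetic tetraploid array it was 1.27 (adjusted p 0.0195), but such a fit has 1 parthenogenetic array, assumed to vary like the 2 fertilized arrays that alone give the spread. The serine, tyrosine and asparagine enzymes of the cytosol also had positive fitted differences, of 0.39 for Sars (SE 0.27), 0.33 for Yars (SE 0.30) and 0.41 for Nars (SE 0.26). Sars signals were 4133, 3614, 2635 and 3299, and Yars signals 1736, 1481, 1174 and 1379, with no overlap between origins in either gene. Nars signals were 42160.0, 30015, 22176 and 32183, where the fertilized tetraploid array lay above the parthenogenetic tetraploid one. With common median scaling the differences of Sars, Yars and Nars came to 0.07, 0.01 and 0.09.

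Mars1, the cytosolic methionyl-tRNA synthetase (chromosome 10) that also charges the initiator tRNA, had the most negative cytosolic difference. Its signals were 6971, 4061, 9266 and 8549.7, so both parthenogenetic arrays were lower, the tetraploid one most of all. The fitted difference was -0.74 (SE 0.29, limma adjusted p 0.527). It was -0.35 without the parthenogenetic tetraploid array (adjusted p 0.826) and -1.13 without the diploid one (adjusted p 0.0413), where again 1 parthenogenetic array was left and the spread came from the fertilized arrays alone. Qars, the glutaminyl-tRNA synthetase, had signals of 5088, 5583, 6808 and 6575 and a difference of -0.33 (SE 0.25, adjusted p 0.696). Kars, which supplies lysyl-tRNA to both compartments, had signals of 4883, 6282, 4966 and 7566 and a difference of -0.15 (SE 0.29), and its origins overlapped. The other cytosolic genes had fitted differences between -0.24 (Wars) and 0.20 (Hars).

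Among the mitochondrial enzymes, Lars2 (chromosome 9), which charges mitochondrial leucine tRNAs, had signals of 1846 and 1960.5 on the parthenogenetic arrays and of 3366 and 3001 on the fertilized ones. The arrays of an origin lay close together and the origins did not overlap. The fitted difference was -0.74 (SE 0.27, limma adjusted p 0.494). Yars2, the mitochondrial tyrosyl-tRNA synthetase (chromosome 16), had signals of 271, 177, 527 and 398, and a difference of -1.03 (SE 0.43, adjusted p 0.542). Its second probe set, with signals of 246, 196, 281 and 178, had a difference of -0.02 (SE 0.51) and overlapping origins. Aars2 (chromosome 17) had signals of 30.3 and 38.8, both below the floor, against 137 and 190 in fertilized embryos, of which only the tetraploid array's signal was above its floor. It passed the filter through the fertilized arrays only, and its fitted difference of -1.95 (SE 1.27, adjusted p 0.659) rests on 3 signals not told apart from background, so no fold is given. The remaining mitochondrial genes had differences between -0.40 (Fars2) and 0.22 (Cars2).

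**Figure D2:**
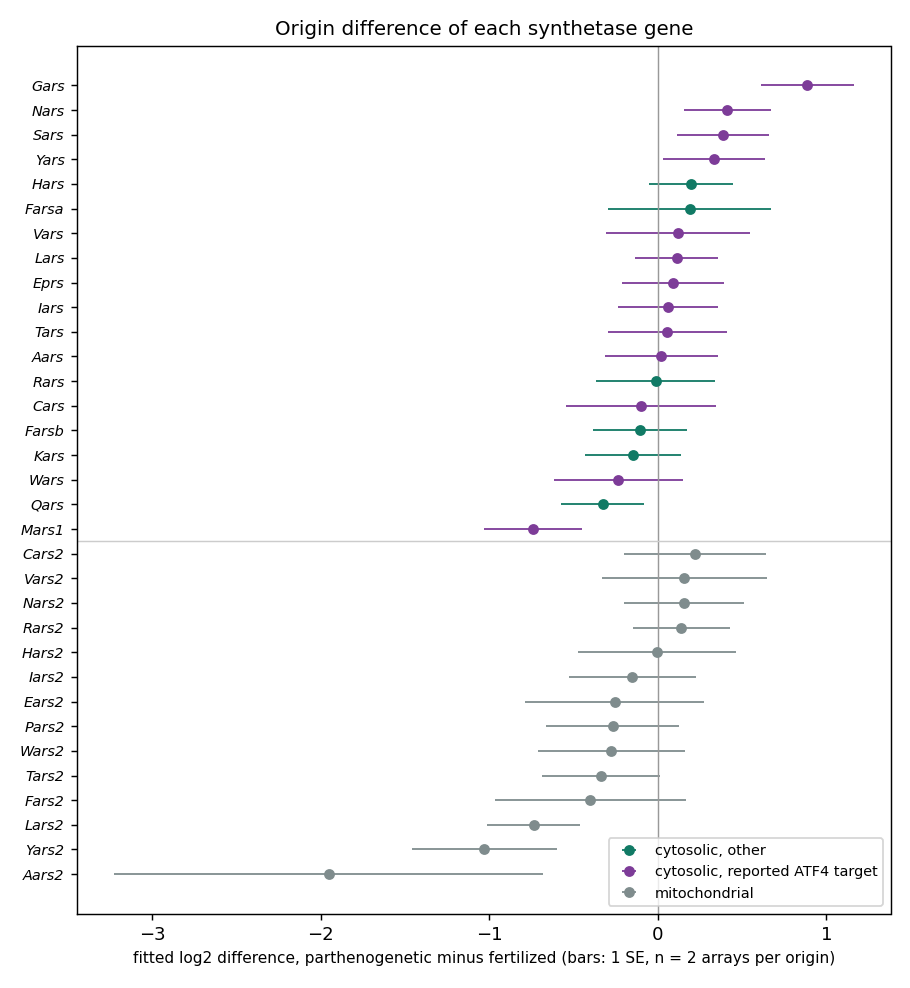
Points are the fitted log2 differences of the 33 tested synthetase genes, parthenogenetic minus fertilized, with bars of 1 standard error (2 arrays per origin); cytosolic genes stand above the line and mitochondrial genes below it. Gars at 0.89 lies highest, and Lars2, Yars2 and Aars2 at -0.74, -1.03 and -1.95 lie lowest among the mitochondrial genes, Aars2 with 3 of its 4 signals below the floor.

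Set against each other, 12 of 19 cytosolic and 4 of 14 mitochondrial genes had a positive origin difference. The median was 0.06 for the cytosolic and -0.26 for the mitochondrial genes, beside 0.02 for all genes tested. The cytosolic median fell below 0 when the diploid array of either origin was left out, to -0.31 for the parthenogenetic and -0.03 for the fertilized one. It was 0.45 when the parthenogenetic tetraploid array was left out, and -0.26 with common median scaling. The mitochondrial median ranged from -0.49 to -0.08 as single arrays were left out. With all probe sets of a gene averaged, those too dim to test among them, it was 0.14. The cytosolic median was then 0.06, so the order of the compartments turned. In 13 combinations an amino acid has a separate enzyme in each compartment, read here from the chosen probe sets only. The cytosolic difference was above the mitochondrial one in 10 of them, with a median gap of 0.26. The gap was 1.36 for tyrosine (Yars over Yars2, with the chosen Yars2 probe set) and 0.85 for leucine (Lars over Lars2). That of alanine, 1.97, rests on the dim signals of Aars2. The gap was on the other side for cysteine (-0.32), arginine (-0.15) and valine (-0.04). The 76 mitochondrial ribosomal protein genes, partners of the mitochondrial enzymes in translation, had a median origin difference of -0.41 with 65 lower, and the 41 tested cytosolic ribosomal protein genes a median of -0.12 with 30 lower. None of either list passed the limma threshold, and an unadjusted p under 0.05 was reached by 15 mitochondrial and 2 cytosolic ribosomal protein genes, all lower. Of all 11341 genes tested, 5503 had a negative origin difference, 515 of them at an unadjusted p under 0.05.

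The origin difference was unlike in the diploid and in the tetraploid embryos. These comparisons set 1 array against 1 other and allow no test, so genes are counted when they differed by at least 1.5-fold. In the diploid pair 11 members were higher in parthenogenetic embryos by that rule, 9 of them cytosolic, and 3 were lower, all mitochondrial. Over all genes 19.6% were higher and 17.4% lower. In the tetraploid pair 1 member was higher (Farsa) and 13 were lower, 6 cytosolic and 7 mitochondrial. Over all genes 25.4% were higher and 20.4% lower there. In the diploid pair 14 of 19 cytosolic genes were higher at any size, with a median log2 difference of 0.56 and a range from -0.55 (Farsa) to 1.21 (Gars). In the tetraploid pair 14 of 19 were lower, with a median of -0.27 and a range from -1.07 (Mars1) to 0.93 (Farsa). The medians of all genes were 0.01 and 0.05. The mitochondrial medians were -0.14 and -0.53. With all probe sets of a gene averaged, the mitochondrial medians were 0.29 and -0.28, and the cytosolic ones 0.62 and -0.27. Common median scaling moved the median of all genes in the tetraploid pair to -0.51 and that of the cytosolic genes to -0.83, and those of the diploid pair to -0.07 and 0.48. In pooled embryos, fewer cells of a type and less RNA per cell cannot be told apart.

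Valine, alanine, asparagine and isoleucine enzymes show the change of side. Vars had signals of 907 and 588 on the parthenogenetic and fertilized diploid arrays, but 389 and 508 on the tetraploid ones. Aars had 9434 and 5883 in the diploid pair and 4468 and 6961 in the tetraploid pair. Nars went from a log2 difference of 0.93 to -0.10, and Iars, with signals of 12312, 6850.4, 9423 and 8216, from 0.39 to -0.26. In each of these genes the parthenogenetic diploid array was the highest of the 4. The mitochondrial genes Iars2 (1421, 692, 1055 and 1155) and Fars2 (461, 127, 339 and 312) were likewise highest on that array, and lowest on the parthenogenetic tetraploid one, where Fars2 lay below the floor. Vars2, the mitochondrial valine enzyme, had 319, 219.8, 180.1 and 309, with the parthenogenetic diploid array just above the fertilized tetraploid one. Farsa and Farsb, the subunits that together form cytosolic phenylalanyl-tRNA synthetase, differed from each other. Farsb had signals of 10522, 6530.2, 9610 and 8270.1, with log2 differences of 0.13 and -0.34 in the diploid and tetraploid pairs. Farsa had 216, 413, 322 and 212, with differences of -0.55 and 0.93, so it was highest on the array where Farsb was lowest. Nars2, for mitochondrial asparagine, was also lower in parthenogenetic embryos of the diploid pair and higher in those of the tetraploid pair, with signals of 715, 1212, 825 and 847.

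**Figure D3:**
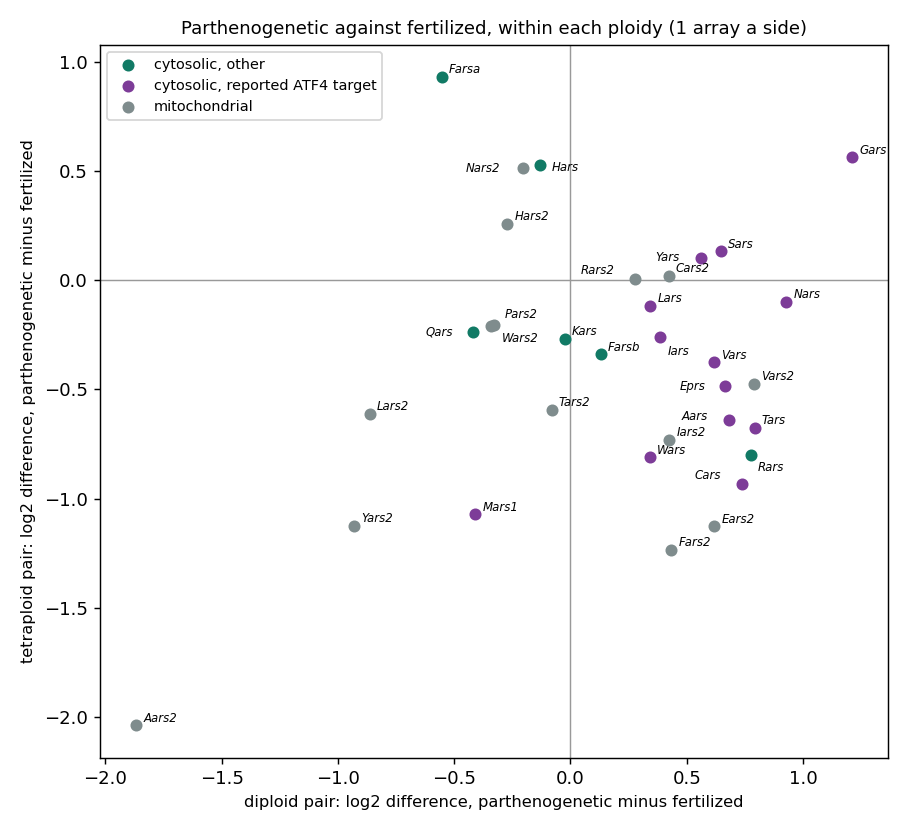
Each point is a tested synthetase gene, placed by its log2 difference (parthenogenetic minus fertilized) in diploid embryos on the x axis and in tetraploid embryos on the y axis, with 1 array a side. Of the 13 reported ATF4 targets 9 fall right of 0 and below 0, Gars, Sars and Yars are positive on both axes, and Mars1, Lars2, Yars2 and Aars2 are negative on both.

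The comparisons between ploidies use the same 4 arrays. In limma's fit of the 2 tetraploid and 2 diploid arrays, adjusted for origin, no synthetase gene passed the adjusted threshold, and neither did any other probe set (0%, with 1424 probe sets at an unadjusted p under 0.05). No member reached an unadjusted p under 0.05, against 6.97% of all genes. The members with the largest test statistics were Iars at -0.52 (SE 0.25, limma adjusted p 0.825), Kars at 0.48 (SE 0.24, adjusted p 0.828), Farsb at -0.45 (SE 0.24), Vars at -0.70 (SE 0.38), Fars2 at -0.95 (SE 0.52) and Mars1 at -0.45 (SE 0.25). Kars was thus higher and the others lower on the tetraploid arrays. Kars was higher on the tetraploid array of each origin, at 6282 against 4883 and at 7566 against 4966. Iars, Farsb, Vars and Mars1 had log2 differences between -1.20 (Vars) and -0.69 (Farsb) in parthenogenetic embryos and between -0.22 and -0.12 in fertilized ones, and the gap between origins was not tested. Fars2 had -1.79 and -0.12, the first against a signal below the floor.

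Within the parthenogenetic embryos, 16 members were at least 1.5-fold lower in tetraploid than in diploid blastocysts, 11 cytosolic and 5 mitochondrial, and 3 were higher. Over all genes 21.3% were lower and 18.7% higher. Of the 19 cytosolic genes 15 were lower at any size, with a median of -0.70 against -0.02 for all genes and -0.02 for the mitochondrial genes. The range ran from -1.20 (Vars) to 0.90 (Farsa). Within the fertilized embryos, 4 members were higher by 1.5-fold and 0 lower, where 12.9% of all genes were higher and 20% lower. Of the cytosolic genes 11 were higher there, with a median of 0.23, and with common median scaling 18 were higher, a scaling that moved the median of all genes in this pair from -0.07 to 0.26. The parthenogenetic diploid array stands in both the diploid comparison of origin and the parthenogenetic comparison of ploidy, so a high signal on it raises the first and lowers the second. On the parthenogenetic tetraploid array, the 3′ to middle ratios and the lower epiblast sum given above move with these differences, and their part in them was not tested.

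Reported ATF4 targets make up 13 of the 19 cytosolic genes: Aars, Cars, Eprs, Gars, Iars, Lars, Mars1, Nars, Sars, Tars, Vars, Wars and Yars. On the parthenogenetic diploid array 11 of the 13 had their highest signal (84.6%, against 24.3% of all genes), and 7 had their lowest on the parthenogenetic tetraploid array (53.8%, against 31.0% of all genes). In the diploid pair 12 of 13 were higher in parthenogenetic embryos, with a median of 0.65, and Mars1 was lower at -0.41. In the tetraploid pair 10 of 13 were lower, with a median of -0.38. In parthenogenetic embryos all 13 were lower in tetraploid than in diploid blastocysts, with a median of -0.78. The count was also 13 with quantile normalization, another scaling, and with all probe sets of a gene averaged. Common median scaling and other pseudocounts could not have lowered it, so their counts of 13 add nothing. In fertilized embryos 9 of 13 were higher in tetraploid blastocysts, with a median of 0.24. The signals of Tars, Eprs and Rars are given because of their values, outside the rule for named genes. Tars, for threonine, illustrates the order, with signals of 7491, 3381, 4321 and 5415. Eprs had 9116, 5205, 5747 and 7295, and both genes were highest on the first array and lowest on the second. The 6 other cytosolic genes (Farsa, Farsb, Hars, Kars, Qars and Rars) had medians of -0.08 in the diploid pair, -0.25 in the tetraploid pair, 0.25 between parthenogenetic ploidies and -0.08 between fertilized ploidies. With all probe sets of a gene averaged, these medians were -0.01, -0.13, -0.04 and 0.09, so those between ploidies changed sign. Rars, the arginine enzyme, and Farsb were highest on the parthenogenetic diploid and lowest on the parthenogenetic tetraploid array, with Rars signals of 6414, 3003, 3744 and 5232.

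Further genes of the ATF4 pathway were read from a list of 18, of which 17 were tested. None passed the origin threshold in limma, and 2, Slc7a5 and Atf5, reached an unadjusted p under 0.05, as did 10% of all genes. Atf4 itself had signals of 14659.5, 14921, 14791 and 14389.5, with an origin difference of 0.02 (SE 0.22), and its mRNA level was nearly equal on all arrays. In the diploid pair 13 of 17 were higher in parthenogenetic embryos, with a median of 0.71, against 5744 of all 11341 genes. By 1.5-fold 9 were higher, against 19.6% of all genes. Between parthenogenetic ploidies 12 were lower in tetraploid embryos, with a median of -0.53, against 5821 of all 11341 genes. Slc7a5, the transporter that takes up leucine and other large neutral amino acids, had signals of 3233, 1524, 863 and 1157 and an origin difference of 1.14 (SE 0.38, limma adjusted p 0.428). Atf5, a transcription factor downstream of ATF4, had 518, 547, 194 and 228 and a difference of 1.30 (SE 0.40, adjusted p 0.378), so it was higher in both parthenogenetic samples. Chac1, which breaks down glutathione, had 1000 (999.884 before rounding), 409, 451 and 322 and a difference of 0.73 (SE 0.45). Asns, the asparagine synthetase that supplies the substrate of Nars, had 5365, 2883, 4214 and 5429 and a difference of -0.28 (SE 0.32, adjusted p 0.808). Asns was thus highest on the fertilized tetraploid array, just above the parthenogenetic diploid one, and lowest on the parthenogenetic tetraploid one. Its log2 differences were 0.35 in the diploid and -0.91 in the tetraploid pair.

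**Figure D4:**
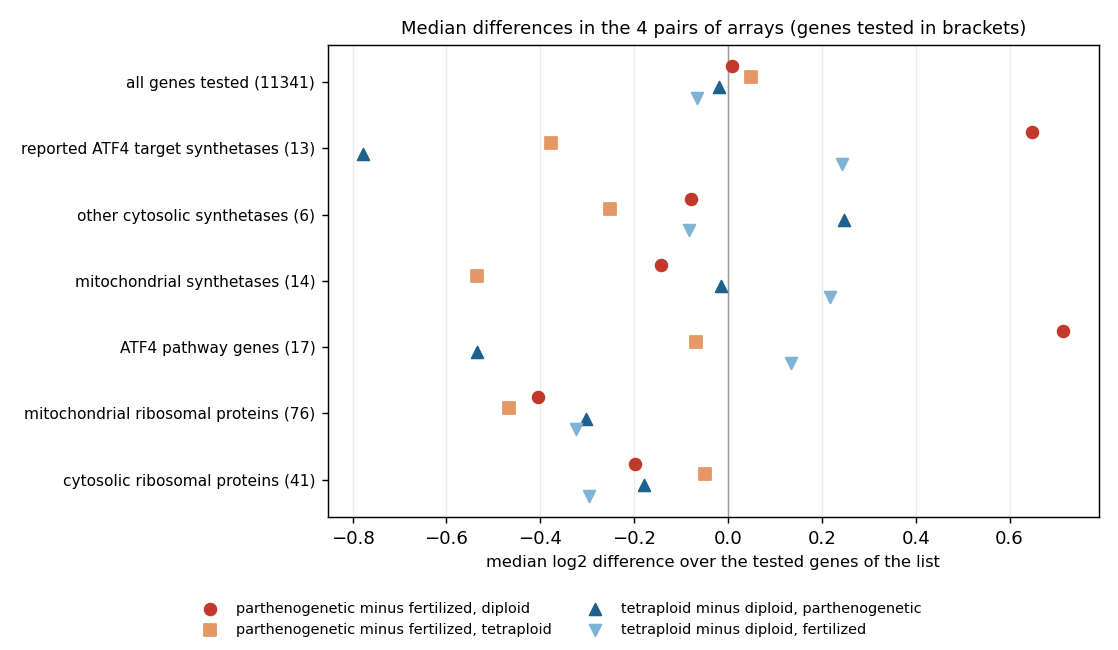
Each row is a gene list and each point the median log2 difference of its tested genes in 1 of the 4 pairs of arrays; the list's size stands in brackets. The reported ATF4 target synthetases and the other ATF4 pathway genes lie at 0.65 and 0.71 in the diploid comparison of origin and at -0.78 and -0.53 between parthenogenetic ploidies, while all genes lie between -0.07 and 0.05.

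Promoter sequences were searched because many of the cytosolic genes are reported ATF4 targets and ATF4 is known to bind composite elements that contain a run of the form TGATGNAA. The 300 bases around the start of each gene in RefSeq (GRCm38.p6), 250 before and 50 after, were searched for TGATGNAA on both strands. Of the 35 synthetase genes 26 had a promoter entry, and 5 of these held the motif (19.2%), against 4.51% of 27025 genes and 3.97% of 32851 promoters. All 5 were cytosolic and reported ATF4 targets: Aars, Gars, Iars, Tars and Yars. This is 5 of 12 cytosolic genes with an entry (41.7%), 0 of 14 mitochondrial genes, and 5 of 17 ATF4 pathway genes (29.4%), Asns among them. Of the 13 reported target synthetases only 8 had an entry, 5 of them with the motif (62.5%). Of the 6 other cytosolic genes 4 had an entry, 0 of them with it. The stretches below are shown since they are the places in the 5 genes, and in Asns for comparison, where the motif was found; capitals mark the motif, which is its reverse complement in Gars, Tars, Aars and Iars.
Gars, chr6:55037941-55038000, plus strand: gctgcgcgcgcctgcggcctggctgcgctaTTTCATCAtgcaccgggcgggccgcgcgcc
Tars, chr15:11399659-11399718, minus strand: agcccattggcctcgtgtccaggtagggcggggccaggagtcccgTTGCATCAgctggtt
Aars, chr8:111033704-111033763, plus strand: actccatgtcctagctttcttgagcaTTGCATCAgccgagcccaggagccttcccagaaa
Aars, chr8:111033841-111033868, plus strand: gcgggtcactTTTCATCAgagcgctctg
Iars, chr13:49682127-49682154, plus strand: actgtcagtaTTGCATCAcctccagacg
Yars, chr4:129189896-129189923, plus strand: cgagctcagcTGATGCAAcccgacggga
Asns, chr6:7693210-7693269, minus strand: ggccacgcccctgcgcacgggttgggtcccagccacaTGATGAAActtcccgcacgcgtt

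The first base of the motif, counted along the gene's strand, lies at -30 from the gene start in Gars, at -15 in Tars, at -112 and 9 in Aars, at 7 in Iars, at 3 in Yars and at -23 in Asns. Aars is the member with a pair of copies. Read along the motif, the variable base is C in Tars, Iars, Yars and the first Aars copy, and A in Gars, Asns and the second Aars copy. The 5 genes did not share an order of arrays: Gars and Yars were higher on both parthenogenetic arrays, while Aars, Iars and Tars were higher only on the diploid one. A match of these letters describes the sequence only.

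By role in the multi-synthetase complex, the 7 complex enzymes read here (Eprs, Iars, Kars, Lars, Mars1, Qars and Rars) had a median origin difference of -0.01, and the 12 enzymes outside it 0.15. All 7 were lower in the parthenogenetic sample of the tetraploid pair, as were 7 of the 12 outside it and 5371 of all 11341 genes. The 3 scaffold genes were each lower in parthenogenetic embryos in both pairs. None passed the limma threshold, and Aimp1 alone reached an unadjusted p under 0.05. Aimp1 had signals of 2260.3, 935, 2815 and 2496 and an origin difference of -0.86 (SE 0.39, limma adjusted p 0.561), with its lowest signal on the parthenogenetic tetraploid array. Aimp2 had 2398, 2258, 3269 and 2876 and a difference of -0.40 (SE 0.27), without overlap between origins. Eef1e1 differed by -0.11 (SE 0.28). By catalytic fold, the 9 class I enzymes had a median of -0.01 and the 9 class II enzymes of 0.19.

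Related genes outside the rule were tested as 8 of 9 listed, and none passed the limma threshold for origin, with Gatb alone at an unadjusted p under 0.05. Gatb, part of the amidotransferase that makes mitochondrial glutaminyl-tRNA from glutamyl-tRNA, had signals of 41.8, 22.5, 270 (269.562 before rounding) and 187. The parthenogenetic signals were below the floor and the fertilized ones above it, and the gene passed the filter through the fertilized arrays only. With the floor in place of the dim signals, the fertilized signal was at least 1.67-fold higher. Its partner subunits ran otherwise, at 0.63 (SE 0.50) for Gatc and -0.02 (SE 0.27) for Qrsl1. Prorsd1, related to prolyl-tRNA editing enzymes, had a difference of -0.68 (SE 0.37). Among 5 tested cytosolic elongation genes, which hand charged tRNAs to the ribosome and move it along, the origin differences lay between -0.11 and 0.01. Among 8 tested mitochondrial translation factors they lay between -0.52 (Mrrf) and 0.41 (Tsfm), with 5 lower, and in either list 0 passed limma's threshold and 0 an unadjusted p under 0.05.

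Other probe sets of the same genes were compared with the chosen ones. The 11 cytosolic genes with several probe sets had 21 further ones tested, of which 19 were lower in tetraploid than in diploid parthenogenetic embryos and 15 higher in the diploid comparison of origin, and 0 were called. In these 21 the sign was that of the chosen probe set in 16 and 14. For Farsa the 3 further probe sets disagreed among themselves, with origin differences of -1.57, 0.22 and 0.72 beside 0.19 for the chosen one, and 3 of its 4 were higher on the tetraploid parthenogenetic array. For the mitochondrial genes 7 further probe sets were tested and 9 were too dim, and the sign agreed in 4 of 7 for the diploid and in 4 of 7 for the tetraploid comparison of origin.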

How the data were processed

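RNA from 4 pools of mouse blastocysts was measured on 4 Affymetrix arrays. The authors deposited 1 intensity for every probe set on each array, a MAS5 signal (MAS5 is an algorithm that reduces a probe set to 1 value), per the submitters' processing notes; further steps are not given in the sources used here. Of 45101 probe sets, 64 were controls, 34945 had 1 gene symbol in the platform annotation, 932 several (not used) and 9211 none, and 34741 matched RefSeq (GRCm38.p6). Here log2(signal + 10) was tested where the signal reached the array median on at least 2 arrays (23746 probe sets), with limma 3.58.1 in R 4.3.3 (lmFit, eBayes with an intensity trend, Benjamini-Hochberg over all of them). The fit of origin had no ploidy term and 2 residual degrees of freedom; that of ploidy had origin as a covariate and 1. On this scale folds of dim genes are understated. Members with the largest test statistics (8 for origin, 6 for ploidy), Gars, Kars and the partners of these in the other compartment were named with full values. Tars, Eprs, Rars and Qrsl1 were added after their values were seen. Members and lists were chosen with earlier results of these data known. An exact permutation test of 2 against 2 arrays cannot go below 0.333. On simulated data for origin (200 changed of 23746 probe sets) 0 were recovered at log2 differences of 1 or 2 and 37% at 4. Alternatives were other scalings, pseudocounts, filters, probe set rules and variance models, ploidy as a block, and leaving out arrays.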

Additional observations from a re-analysis of the deposited data

Results flagged for a closer look

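The parthenogenetic minus fertilized difference had opposite signs in the diploid and the tetraploid pair for several values of the report. With 1 array a side, the gap between the pairs was not tested. It is given here as the diploid log2 difference minus the tetraploid one. The median of the cytosolic synthetases had a gap of 0.83 and that of the reported ATF4 targets 1.02. Single genes are listed only where they met the rule for named genes. Among these cytosolic genes the gap was 1.32 for Aars, 1.03 for Nars, 0.99 for Vars, 0.65 for Iars, 0.47 for Farsb and 0.46 for Lars, all positive in the diploid pair. The gap was -1.48 for Farsa, which was positive in the tetraploid pair. Among mitochondrial genes it was 1.67 for Fars2, whose parthenogenetic tetraploid signal was below the floor, 1.26 for Vars2 and 1.16 for Iars2, and -0.72 for Nars2. Outside that rule the sign also differed between the pairs in Cars, Eprs, Hars, Rars, Tars, Wars, Ears2 and Hars2. Cars had 0.74 in the diploid and -0.94 in the tetraploid pair, and Ears2 0.62 and -1.13. The gaps listed are thus not the widest. These values are those of the chosen probe sets. The second Vars2 probe set was higher in parthenogenetic embryos in both pairs (1.68 and 2.04), with fertilized signals below the floor. The further Farsb probe sets had -0.03, -0.13 and 0.40 in the diploid pair.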

How the results depend on the processing

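Counts and medians are given for the 33 tested synthetase genes. For origin, no member passed in the fits with other scalings, pseudocounts, filters, probe set rules or variance models. Leaving out single arrays gave counts from 0 to 1: Gars passed without the parthenogenetic tetraploid array (1.27, adjusted p 0.0195) and Mars1 without the parthenogenetic diploid one (-1.13, adjusted p 0.0413), fits with 1 parthenogenetic array in which the spread came from the fertilized arrays alone. With ploidy as a replicate block 0 members passed, at a lowest adjusted p of 0.151; over all probe sets the block called 142 against 41, leaving out the parthenogenetic diploid array 715 and the parthenogenetic tetraploid array 175, averaging probe sets 14, and a fit without the intensity trend 0 (1850 at an unadjusted p under 0.05). For ploidy 0 members passed in each alternative, where all probe sets gave 0 to 73 calls; leaving out an array was fitted without the origin term. The mitochondrial median of -0.26 came to -0.57 with common median scaling, where that of all probe sets was -0.30, and to 0.14 over averaged probe sets. The cytosolic median was 0.06 over averaged probe sets, below the mitochondrial one. The count of cytosolic genes higher in fertilized tetraploid than diploid embryos was 18 with common median scaling against 11. Of 255 alternative origin values for 20 named genes 26 turned sign, and of 235 for ploidy 25 did, none of these past the threshold. The alternatives for counts within pairs were chosen after seeing the data. The number of arrays limits the precision, and Mars2, Sars2, Aars2 and Fars2 are limited by signal near or below the floor.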
